A study of Drosophila melanogaster with 3 samples.

Results

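The genes examined here encode proteins of the spliceosome, and the measurement is where the chromatin protein Lhr sat relative to their start sites in Drosophila melanogaster embryos. They are the protein-coding genes of Release 6 whose symbol begins with Prp, Sf3a, Sf3b, LSm, snRNP-, U2af or U2A, or is SmB, SmD1, SmD2, SmD3, SmE, SmF, SmG or snf. The rule takes 36 of 13968 protein-coding genes and uses no measured value. SmG matched no symbol, because the annotation lists that gene as SNRPG. A pair of the 36 fall outside the spliceosome by product. Prps encodes phosphoribosyl pyrophosphate synthetase and is taken by its symbol alone, and LSm1 belongs to the cytoplasmic LSm ring that acts in mRNA decapping.

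The spliceosome removes introns from messenger RNA precursors. Its core particles, the U1, U2, U4, U5 and U6 snRNPs, each consist of a small nuclear RNA with a ring of Sm or LSm proteins and particle-specific proteins. U1 recognises the 5′ splice site, U2 with its SF3a and SF3b complexes and the U2AF heterodimer defines the branch site and the 3′ splice site, and the U4/U6.U5 tri-snRNP then joins. Prp proteins, named for yeast mutants in RNA processing, include tri-snRNP components and the ATPases that remodel the complex. These are housekeeping genes, needed in every cell of the embryo, and none of them encodes Lhr or its known partners. Lhr (Lethal hybrid rescue) is a chromatin protein known to act with Hmr and heterochromatin protein 1.

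The assay was chromatin immunoprecipitation with sequencing (ChIP-seq). Whole embryos of mixed sex, collected over 0 to 14 hours of development, came from a transgenic line with GFP fused to the C-terminal end of Lhr, and an anti-GFP antibody was used on chromatin sonicated to 200 to 800 bp. The 3 libraries are biological replicates of this 1 group, per the labels, with no second genotype, treatment or time. The promoter that drives the transgene is not given in the sources used here, and whole embryos mix all cell types, so a peak cannot be assigned to one of them.

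The dm6 list made by the authors with the irreproducible discovery rate (IDR, which scores whether peaks keep their rank between replicates) held 5190 peaks. It consists of the strongest peaks of a combined relaxed list of 20761. That list is labelled as peaks and background, the input for IDR, so a low entry in it need not be a site of binding. The relaxed lists of replicates 1, 2 and 3 held 22598, 30000 and 18934 peaks. A peak is described here by its summit, by its signal (the authors' enrichment value, from 173 to 5492 in the IDR list) and by its rank by signal, where 1 is strongest. Signals have no common scale between lists, so libraries were set side by side through ranks and through their 5190 strongest peaks. The lists hold no read counts, so depth is unknown and no peak has an interval. A gene is called bound when an IDR summit lies within 500 bp of one of its annotated start sites. Figures for the 36 genes are descriptions, set beside the same figure for all protein-coding genes where that was worked out. No test was made over them.

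Lhr peaks lay at the start sites of 19 of the 36 genes (52.8%), where 29.2% of all protein-coding genes were bound. Among the 5190 strongest peaks of each library the count was 15 in replicate 1 (41.7%, against 26.6% of all genes), 22 in replicate 2 (61.1%, against 31.2%) and 19 in replicate 3 (52.8%, against 29.1%). The mean over libraries was 51.9% ± 9.76 (SD, n = 3). The share was above that of all genes in each of the 3 libraries, and replicate 1 was the lowest. In all 3 libraries at once, 14 genes (38.9%) had one of the strongest peaks, against 22.4% of all genes. The share depended on the list. Strongest peaks of 2 libraries are called shared when their summits lie within 100 bp of each other. Without replicate 2, among peaks shared by replicates 1 and 3, the bound share was 30.6% (against 23.1% of all genes). In the upper 50% of IDR peaks it was 27.8% (against 17.2%). The combined relaxed list reached 28 of the 36 (77.8%, against 45.5%). Every one of the 36 had a summit in the full list of at least 1 library, against 60.1% of all genes. The relaxed lists are not thresholded by IDR, so these last shares count listed summits and not bound genes.

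**Figure D1:**
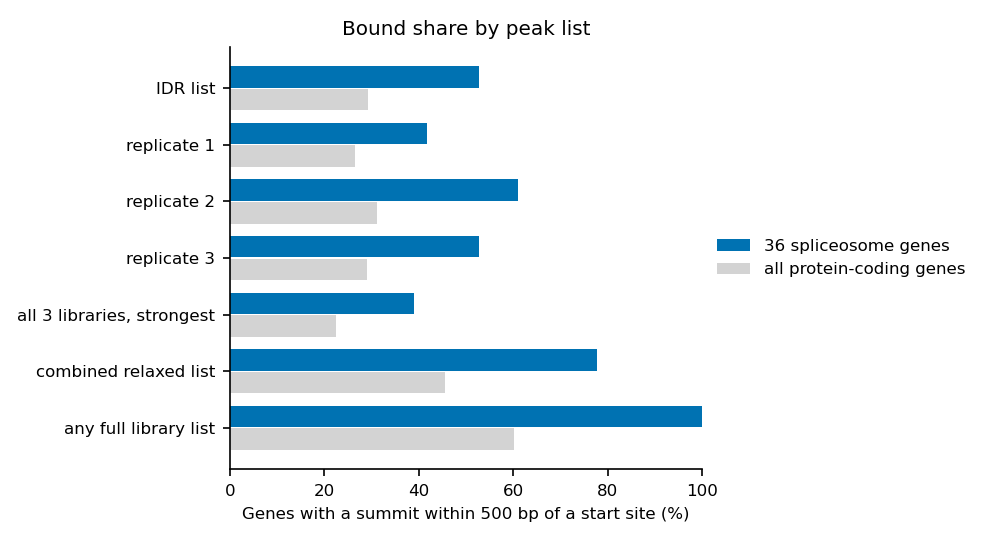
Percent of genes whose start site has a summit within 500 bp in 7 peak lists, for the 36 genes (blue) and all protein-coding genes (grey). The blue bar is the longer of the pair in each list, from 38.9% against 22.4% for the strongest peaks of all 3 libraries at once to 100% against 60.1% when any full library list counts.

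By group, bound were 4 of 6 Sm genes, 2 of 4 LSm genes, 3 of 5 U1 genes, 6 of 10 genes of U2 and the branch site, 4 of 7 tri-snRNP genes, and 0 of 3 genes of the Prp19 complex and the ATPases. Of the 13 genes whose symbol begins with Prp, 4 were bound (30.8%), close to the 29.2% of all genes, and of the other 23, 15 were (65.2%). This split by symbol was not planned. All of the 13 but Prp4k start back to back with another gene, as described further on, and 49.1% of all such protein-coding genes were bound. By arm, 5 of 9 were bound on 2L (27.6% of all genes of the arm were), 4 of 7 on 2R (29.3%), 4 of 9 on 3L (30.7%), 4 of 7 on 3R (29.4%) and 2 of 4 on X (28.5%).

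**Figure D2:**
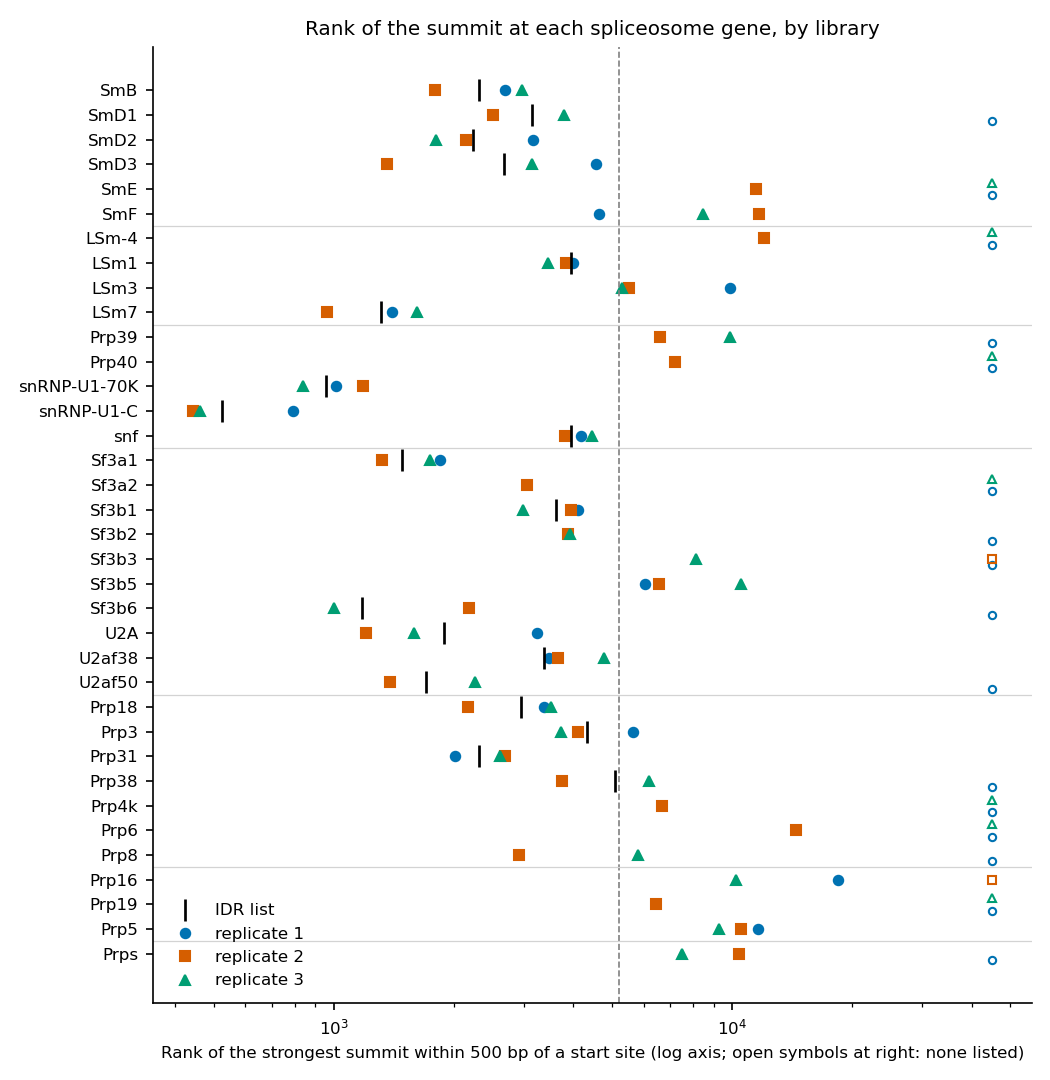
Rank of the strongest summit within 500 bp of a start site of each gene (log axis), grouped by particle, with the IDR list as a black bar and replicates 1, 2 and 3 as circles, squares and triangles. The dashed line marks rank 5190, and open symbols at the right mark a full list with no summit. snRNP-U1-C stands furthest left at ranks from 443 to 788, and most open symbols are circles of replicate 1.

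The strongest peaks of the set lay at the U1 genes snRNP-U1-C and snRNP-U1-70K, the first of them nearer to the start of the neighbouring gene gukh (118 bp). snRNP-U1-C, whose zinc-finger protein helps U1 hold the 5′ splice site, had the top one at rank 524 (signal 687), at −257 bp from the start, where negative values are upstream. In replicates 1, 2 and 3 its summit ranked 788, 443 and 462, with signals of 216, 208 and 262. These summits lay at −254, −263 and −257 bp, so the libraries placed it within 9 bp of each other. snRNP-U1-70K, which binds the first stem loop of U1 RNA, followed at rank 957 (signal 534, −140 bp). Its library ranks were 1012, 1186 and 836 and its signals 189, 140 and 207, so each library placed it among its first 1186 peaks. snf, the fly protein that serves in both the U1 and the U2 particle, lay far lower at rank 3940 (signal 223, −105 bp), with library ranks of 4172, 3800 and 4457. Prp39 and Prp40, counterparts of yeast U1 proteins, were not bound. Prp39 had summits at ranks 6616 and 9884 in replicates 2 and 3, and Prp40 at rank 7202 in replicate 2 alone. The DNA under both strong U1 summits is shown because these are the highest peaks of the set. Each stretch is 151 bases centred on the summit, from the RefSeq genome of Release 6 (dm6), printed on the gene's strand, which is the minus strand for both. Capitals mark searched words, described with the other promoter words further on. The first is chr3R:18983832-18983982, with the Zelda word, and the second chr2L:6971802-6971952, with TATA box words and a tRNA B box word, an element of tRNA genes.
snRNP-U1-C: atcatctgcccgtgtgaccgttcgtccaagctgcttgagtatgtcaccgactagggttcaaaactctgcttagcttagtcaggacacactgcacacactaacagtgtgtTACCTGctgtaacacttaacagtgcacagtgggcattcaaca
snRNP-U1-70K: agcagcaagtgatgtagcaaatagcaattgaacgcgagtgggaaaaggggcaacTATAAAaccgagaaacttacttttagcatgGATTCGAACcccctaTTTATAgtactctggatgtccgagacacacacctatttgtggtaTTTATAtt

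Of the genes for U2 and the branch site, 6 of 10 were bound. Sf3b6, whose product sits at the branch point in the SF3b complex, was the strongest at rank 1178 (signal 481, −144 bp). Replicate 3 ranked it 1004 (signal 188) and replicate 2 ranked it 2183 (signal 103), while the full list of replicate 1 had no summit within 500 bp. Sf3a1, a subunit of SF3a, came next at rank 1482 (signal 423, −73 bp). Its library ranks were 1853, 1320 and 1747, with signals of 136, 134 and 139, which put it among the strongest peaks of all 3. U2af50, the subunit of U2AF that binds the polypyrimidine tract, ranked 1709 (signal 394, −153 bp), with ranks of 1387 and 2259 and signals of 131 and 120 in replicates 2 and 3. Replicate 1 had no summit there either. U2A, the partner of snf in the U2 particle, ranked 1894 (signal 375, −111 bp), with 3234, 1205 and 1590 in the libraries and signals of 94.7, 139 and 147. Replicate 1 gave it the lowest rank. U2af38, which reads the 3′ splice site, ranked 3381 (signal 253), and its summit at −405 bp was the most distant of the bound set. Its library summits, at −411, −399 and −404 bp, kept that distance. Sf3b1, the large SF3b subunit, ranked 3607 (signal 241, −60 bp).

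The unbound genes of U2 and the branch site were Sf3a2, Sf3b2, Sf3b3 and Sf3b5. Sf3b2 was among the strongest peaks of replicates 2 and 3, at ranks 3882 and 3914 (signals 69.9 and 79.7, −19 and −74 bp), yet had no summit in the combined list or in replicate 1. Of the 3842 strongest peaks shared by replicates 2 and 3, 71 (1.85%) were absent from the combined list in this way, against 0.542% of those shared by replicates 1 and 2 and 0.503% of those shared by 1 and 3. The reason was not tested. Sf3a2 had a summit in replicate 2 alone, at rank 3051 (signal 83.4, −103 bp). Sf3b3 had 1 in replicate 3 alone, at rank 8103. Sf3b5 had summits in all 3 full lists, at 6040, 6555 and 10509, and at 6995 in the combined list, below the end of the IDR list. Absence from the IDR list therefore covered cases from a listed summit in 1 library to listed summits in 3. The DNA of 3 of these 10 genes is shown. Sf3b6 (chr3L:6193248-6193398, minus strand) is the strongest peak of the group and holds none of the searched words within its 151 bases. Sf3b1 (chr2L:568205-568355, plus strand) and Sf3b3 (chr3L:833365-833515, minus strand, from 130 bp before the start to 20 bp after its first base) were chosen after their values were seen, as a bound promoter with several words and an unbound one that also holds several. Capitals mark the BEAF-32 core word CGATA and the M1BP word in Sf3b1, and the DRE word (which contains CGATA), the TATA box word and the initiator word in Sf3b3.
Sf3b6: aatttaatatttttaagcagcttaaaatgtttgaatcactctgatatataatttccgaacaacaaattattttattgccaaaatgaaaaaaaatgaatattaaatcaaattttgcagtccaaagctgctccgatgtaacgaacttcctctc
Sf3b1: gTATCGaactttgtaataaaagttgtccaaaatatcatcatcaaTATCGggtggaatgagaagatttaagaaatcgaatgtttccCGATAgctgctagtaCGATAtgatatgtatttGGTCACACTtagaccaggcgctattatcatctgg
Sf3b3: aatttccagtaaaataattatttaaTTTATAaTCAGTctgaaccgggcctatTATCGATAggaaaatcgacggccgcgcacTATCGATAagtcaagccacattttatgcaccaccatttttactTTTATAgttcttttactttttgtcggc

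The Sm ring, which encloses U1, U2, U4 and U5 RNA, had 4 of its 6 genes bound, all at middle ranks. SmD2 ranked 2238 (signal 336, −109 bp), with 3165, 2150 and 1807 in replicates 1, 2 and 3 and signals of 96.2, 104 and 136. SmB ranked 2315 (signal 330, −99 bp), with 2686, 1797 and 2967 and signals of 108, 113 and 99.7. SmD3 ranked 2684 (signal 299, −49 bp), with 4544, 1359 and 3142 and signals of 70.7, 132 and 95.3. Of these 3, SmB varied least in rank over the libraries, and SmD3 most, from the upper ranks of replicate 2 to the lower ranks of replicate 1. SmD1 ranked 3156 (signal 267, −96 bp), with 2519 and 3789 in replicates 2 and 3 and no summit in replicate 1. SmE and SmF were not bound. SmF was among the strongest peaks of replicate 1 at rank 4629 but ranked 11683 and 8461 in the other libraries and 6678 in the combined list. SmE appeared in replicate 2 at rank 11474 and in the combined list at 13358. SNRPG, the gene of SmG that the rule misses, had a peak at rank 717 (signal 607, −382 bp).

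The LSm ring binds U6 RNA in the nucleus and, with LSm1, the ends of decaying mRNA in the cytoplasm. LSm7 was the strongest of its 4 genes at rank 1318 (signal 454, −75 bp), with library ranks of 1399, 960 and 1619 and signals of 158, 153 and 146. It was the single gene of the set with a second IDR summit, at rank 3460 and −278 bp. LSm1 ranked 3939 (signal 223, −114 bp), with 3979, 3841 and 3457, although its library summits spread over −78, −146 and −282 bp. LSm3 and LSm-4 were not bound. LSm3 came nearest to being so, at rank 5947 of the combined list (signal 150, 43 bp after the start), with 9861, 5512 and 5285 in the libraries. LSm-4 had a summit in replicate 2 at rank 12041 and in the combined list at 17622. Shown for contrast are LSm7 (chr2L:16743100-16743250, minus strand, centred on its strongest summit) and the promoters of the 2 unbound genes, from 130 bp before the start to 20 bp after its first base, LSm-4 (chr2L:10405183-10405333, minus strand) and LSm3 (chr3R:23996132-23996282, plus strand). Capitals mark CGATA or its reverse complement in LSm7 and LSm-4, the CTCF core word in LSm7 and the initiator word in LSm3.
LSm7: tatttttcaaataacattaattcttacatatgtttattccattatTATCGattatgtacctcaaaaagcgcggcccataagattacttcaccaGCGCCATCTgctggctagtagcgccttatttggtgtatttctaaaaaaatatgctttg
LSm-4: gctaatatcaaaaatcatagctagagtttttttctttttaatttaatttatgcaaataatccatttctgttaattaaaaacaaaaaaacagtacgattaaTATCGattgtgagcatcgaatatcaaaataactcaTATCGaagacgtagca
LSm3: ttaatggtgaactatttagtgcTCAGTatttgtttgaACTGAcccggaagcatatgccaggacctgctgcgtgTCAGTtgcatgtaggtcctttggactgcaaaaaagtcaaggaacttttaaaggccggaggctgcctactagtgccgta

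In the tri-snRNP group 4 of 7 genes were bound. Prp31, which holds U4 RNA, ranked 2323 (signal 330, −225 bp), with 2020, 2687 and 2619 in the libraries and signals of 128, 90.7 and 109. Prp18, a factor of the second splicing step, ranked 2948 (signal 282, −202 bp), with 3377, 2173 and 3522 and signals of 91.5, 103 and 87.0. Prp31 was placed within 7 bp by all libraries, at −227, −220 and −223 bp, whereas Prp18 was placed at −69 bp by replicate 1 and at −197 and −182 bp by the others. Prp3, a U4/U6 protein, ranked 4338 (signal 204, −51 bp), with 5633, 4108 and 3727. Prp38, needed to activate the assembled spliceosome in yeast, was the weakest bound gene at rank 5082 (signal 177, −21 bp). It ranked 3737 and 6201 in replicates 2 and 3 and was not listed in replicate 1, so it was the single bound gene found among the strongest peaks of just 1 library. The unbound genes were Prp8, the U5 protein at the catalytic centre, Prp6, which bridges the particles, and the kinase Prp4k. Prp8 reached rank 2916 in replicate 2 and 5823 in replicate 3 (signals 86.1 and 56.7, −25 and −49 bp) but was not in the combined list. Prp4k and Prp6 appeared in replicate 2 alone, at ranks 6674 and 14500.

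None of Prp19, Prp16 and Prp5 was bound. Prp19, a ubiquitin ligase that gives its complex its name, had a summit at rank 6429 in replicate 2 and at 14489 in the combined list. Prp16, the ATPase of the second step, had summits at 18493 and 10222 in replicates 1 and 3 and at 13579 in the combined list. Prp5, the ATPase that acts on U2 at the branch site, was listed in all 3 libraries, at 11607, 10546 and 9291, and at 9532 in the combined list. Each of these ranks lay below the 5190 strongest. Prps, which is no splicing gene, ranked 10405 and 7474 in replicates 2 and 3 and 9872 in the combined list, and was not bound.

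The bound genes sat in the body of the IDR list and not at its top. Their median rank was 2323 (quartiles 1596 and 3494), against 2181 (1083 and 3452) for all bound protein-coding genes. None of the 19 was among the first 519 peaks of the list, its upper 10%, which reached 496 bound genes (12.1%). The strongest just missed it at rank 524. In the strongest peaks of replicates 1, 2 and 3 the median rank was 3234, 2351 and 2967, against 2091, 2240 and 2138 for all bound genes. At the other end Prp3 (4338) and Prp38 (5082) were the last inside the IDR list, and LSm3 (5947) and SmF (6678) the first outside it. Across the genes listed in both libraries, ranks had a Spearman rho of 0.88 for replicates 1 and 2 (n = 19 genes), 0.91 for 1 and 3 (n = 20) and 0.86 for 2 and 3 (n = 27). These are correlations across genes, which are not replicates, and the libraries share a control alignment.

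Recurrence differed by library. Of the 19 bound genes, 14 (73.7%) were among the strongest peaks of all 3 libraries, 4 in 2 and 1 in 1, and 76.1% of all bound genes were in all 3. In the full lists, 4 of the 19 (Sf3b6, U2af50, SmD1 and Prp38) had no summit in replicate 1 and 0 had none in replicate 2 or 3. Of all bound genes, 4.94% were listed by replicates 2 and 3 and not by 1. Of all 36 genes, 19 were in all 3 full lists (35.5% of all genes were), 8 in those of replicates 2 and 3 alone (6.54%), 7 in that of replicate 2 alone (9.10%), and 1 each in replicate 3 alone and in replicates 1 and 3. Over all IDR summits, 3.08% had no summit within 500 bp in the full list of replicate 1, against 0.617% for replicate 2 and 0.539% for replicate 3. The list of replicate 2 is also the longest, at 30000 peaks, and its part in these counts was not tested. Of the 17 unbound genes, 15 had a summit in replicate 2, 10 in replicate 3 and 5 in replicate 1. The same shares by library over all unbound protein-coding genes were not worked out, so these counts have no general share beside them. Of all protein-coding genes, 5567 (39.9%) were in no full list, 1 of them bound, against 0 of these 17.

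All 19 summits lay upstream of the start site, against 91.9% for all bound genes. Their median offset was −109 bp (quartiles −148 and −74), against −98 bp (−180 and −48). Within 100 bp of the start lay 8 of the 19 (42.1%, against 48.9%). The median offset among the strongest peaks of each library was −88, −92 and −140 bp, with a mean of −107 ± 28.9 bp (SD, n = 3). The summits thus sat on the upstream side of the start at a distance that differed between libraries. For no unbound gene did an IDR summit lie farther than 500 and within 1000 bp, so the count of 19 did not change with a 1000 bp window. The share of all protein-coding genes rose with that window from 29.2% to 32.2%, beside 52.8% of the set.

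**Figure D3:**
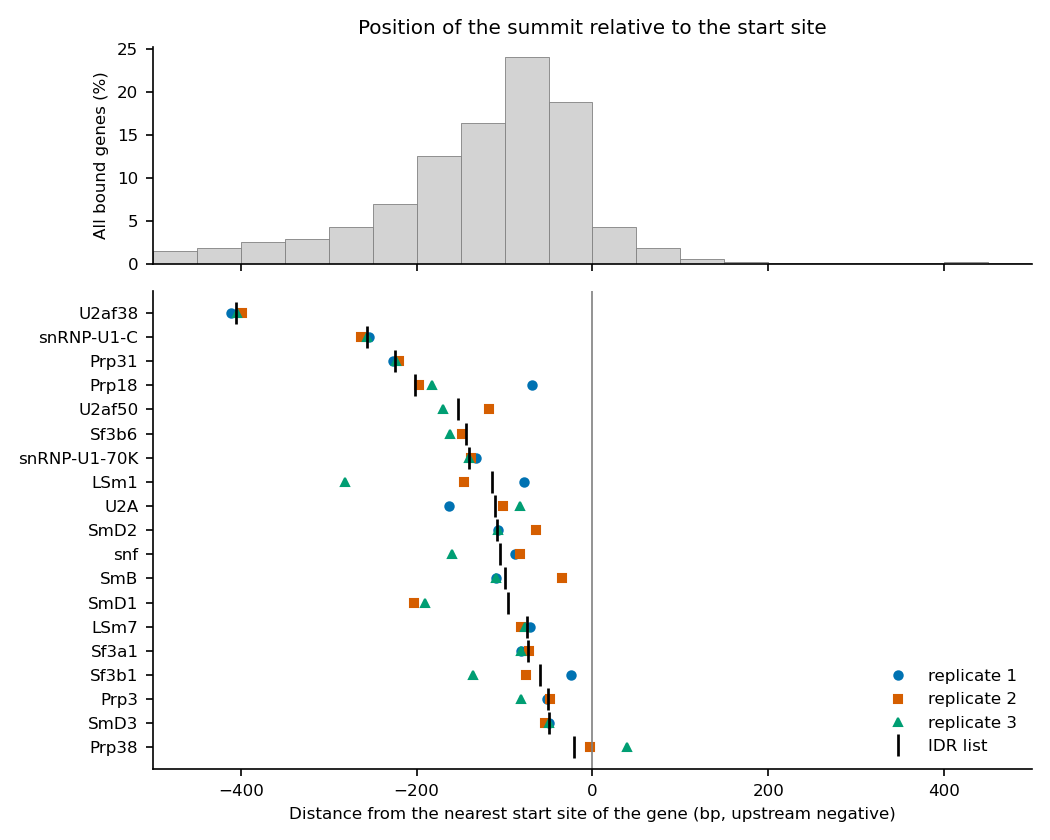
Distance of the summit from the gene's nearest start site in bp, with upstream negative, as a histogram for all bound genes (top, percent) and by gene for the 19 bound genes (bottom, black bar for the IDR list, symbols for the libraries). All black bars lie left of 0, from −405 bp at U2af38 to −21 bp at Prp38, and the library symbols lie close to the bar at snRNP-U1-C and Prp31 but spread at LSm1.

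Most of these genes start back to back with another gene. A divergent neighbour, a gene on the other strand that starts within 1000 bp upstream, was annotated for 32 of the 36 (88.9%), against 39.6% of all protein-coding genes. It was present for 18 of the 19 bound genes (94.7%, against 66.4% of all bound genes) and for 14 of the 17 unbound ones (82.4%, against 28.5%). Bound and unbound genes of the set were thus both mostly divergent. Among divergent genes 18 of 32 (56.2%) were bound, against 49.1% of all divergent protein-coding genes. Among the 4 without such a neighbour (U2A, LSm3, SmF and Prp4k) 1 was bound, U2A, or 25%, against 16.3%. The bound share of the set therefore stood closer to that of all genes once genes of the same arrangement were set side by side. The gap between starts had a median of 280 bp for bound genes (42 to 538) and 402 bp for unbound ones (53 to 958), against 288 and 318 bp for all bound and all unbound divergent genes.

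In 17 of the 18 bound pairs the summit lay between both starts, in 11 it was nearer to the spliceosome gene, in 6 nearer to the neighbour, and at Prp38 as far from either. The summit lay within 500 bp of the neighbour's start in 18 of 18, so by this window none of these peaks can be assigned to one gene of the pair. These positions were not counted over all bound divergent genes, so they are not shown to be particular to this set. Of all bound genes, 91.9% had an upstream summit, and the median gap of all bound divergent genes was 288 bp. snRNP-U1-C faces gukh, the gene of a synaptic scaffold protein, over 375 bp, and its summit was 118 bp from the gukh start, nearer than to its own. snRNP-U1-70K faces the pseudogene CR43142 over 506 bp, and is the one pair whose neighbour is not protein-coding. Sf3b6 faces Tnpo, the gene of the import receptor Transportin, over 301 bp with the summit near the middle, 157 bp from Tnpo. LSm7 faces BuGZ over 305 bp, and Sf3a1 faces Irc, a gene of an immune-regulated catalase, over 520 bp. In both the summit sat on the side of the spliceosome gene, 230 and 447 bp from the neighbour. U2af50 faces PIG-Q, a gene of GPI anchor synthesis, over 104 bp, and its summit lay 49 bp beyond the PIG-Q start, inside the neighbour. SmD2 faces CG18048 over 200 bp, SmB faces KdelR, the gene of the receptor that returns proteins to the endoplasmic reticulum, over 260 bp, and SmD3 faces Oda, the gene of ornithine decarboxylase antizyme, over 243 bp. Prp31 faces Msh6, a mismatch repair gene, over 538 bp, the widest bound gap. Prp18 faces CG6013 over 232 bp, with the summit 30 bp from the neighbour. U2A, the remaining gene of the 12 strongest, has no divergent neighbour. U2af38, named here after its values were seen, had its distant summit 36 bp from the start of its neighbour Stip1, a cochaperone gene.

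**Figure D4:**
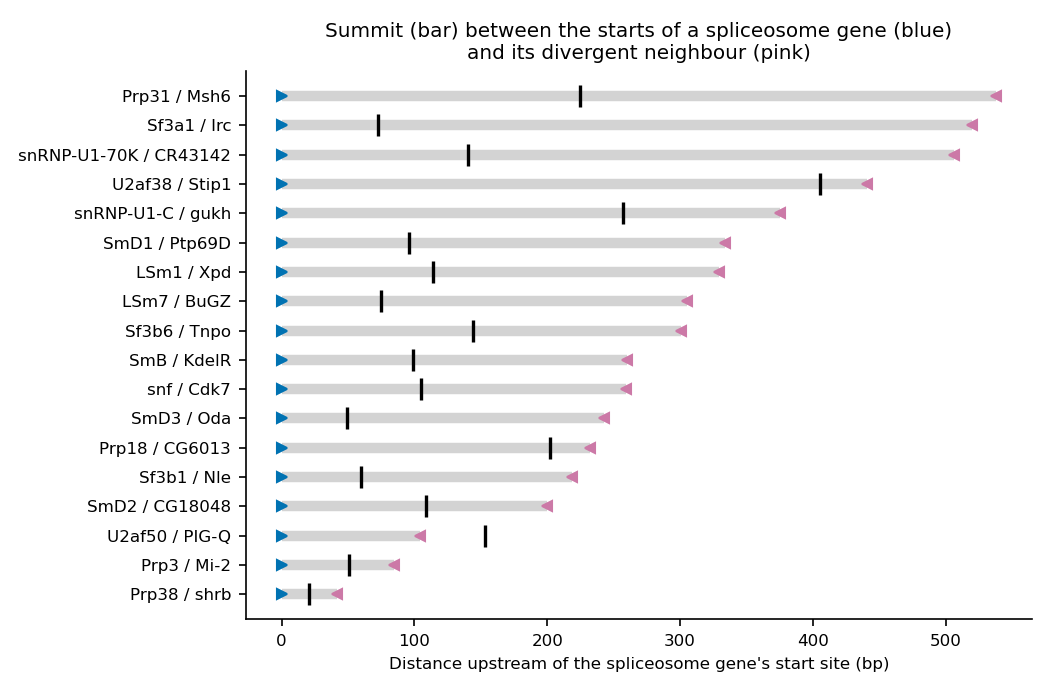
Position of the IDR summit (black bar) between the start of each bound gene (blue, at 0) and that of its divergent neighbour (pink), in bp upstream of the spliceosome gene. The bar lies within the grey gap in 17 of 18 pairs, and beyond the neighbour's start at U2af50 and PIG-Q.

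Each summit was also given to the one protein-coding gene whose start is nearest. The spliceosome gene was the nearest for 13 of the 19, with the tie at Prp38 counted for it, and the other gene was nearer for Prp18, Prp3, SmD2, U2af38, U2af50 and snRNP-U1-C. By this stricter count 36.1% of the set was bound, against 21.2% of all genes. Starts that lie inside or coincide with another protein-coding gene were found for 5 of the 36 (13.9%, against 17.2% of all genes). These are LSm-4, which shares its start with CG17768, LSm3, whose start is inside CG33108, SmE, inside CG7102, SmF, inside CG13175 and CG33964, and SmD3, inside Oda. Of these 5, 1 was bound, SmD3, or 20%, against 19.9% of all genes with such a start.

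Housekeeping promoters of flies are known for a few short sequence elements, and their words were searched as exact matches on both strands. The window ran from 250 bp before to 50 bp after the start. The DRE word TATCGATA, bound by DREF and BEAF-32, was present in 10 of the 36 promoters (27.8%), against 15.5% of promoters of all bound genes and 9.23% of all promoters. The word of M1BP, GGTCACACT, a zinc-finger protein of housekeeping promoters, was present in 8 (22.2%), against 13.9% and 6.06%. One or the other was present in 18 (50%), against 27.8% and 14.5%. The DRE word was in 5 bound genes (SmB, U2A, U2af38, snRNP-U1-C and snf) and 5 unbound ones (Prp39, Prp6, Sf3b2, Sf3b3 and SmE). The M1BP word was in 6 bound genes (Prp18, Prp3, Sf3b1, Sf3b6, SmD2 and snRNP-U1-70K) and 2 unbound ones (Sf3a2 and SmF). No gene held both, and either word was found in 11 of the 19 bound (57.9%) and in 7 of the 17 unbound (41.2%). Both words thus occurred in bound and unbound promoters.

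Their positions were measured within this window, which is placed on the start and not on the summit. The 13 DRE matches had a median position of −32 bp from the start, and the 6 of them in bound genes lay a median of 131 bp from the summit (85 to 381). The 8 M1BP matches had a median of −29.5 bp, and the 6 in bound genes lay a median of 76 bp from the summit (30 to 159). Within 100 bp of a summit, the DRE word was present for 1 of the 19 (5.26%, U2A), against 10.5% of the 3202 promoter summits. The M1BP word was present for 3 (15.8%, Prp18, Prp3 and Sf3b1), against 10.3%.

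The other 6 words were those of BEAF-32, the TATA box, the initiator, the E-box, Zelda and GAGA factor. The core word CGATA of BEAF-32, which lies inside the DRE word, was in 27 promoters (75%), against 58.8% of bound genes and 47.4% of all, and within 100 bp of 12 of the 19 summits (63.2%, against 46.4%). The TATA box word TATAAA was in 19 (52.8%, against 45.5% of all promoters). The initiator word TCAGT was in 13 (36.1%, against 52.1%), below the share of all genes. The E-box word CAGCTG was in 6 (16.7%, against 17.7%). The Zelda word CAGGTA was in 2 (5.56%, against 6.36%) and the GAGA factor word GAGAGAG in 1 (2.78%, against 6.15%). A further pair of words was added after the sequences above had been read. The CTCF core AGNTGGCGC was found at LSm7 alone (1.28% of all promoters held it), and the tRNA B box GTTCGANTC at snRNP-U1-70K alone (0.830%). A match says that the letters are there, and not that a factor is.

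**Figure D5:**
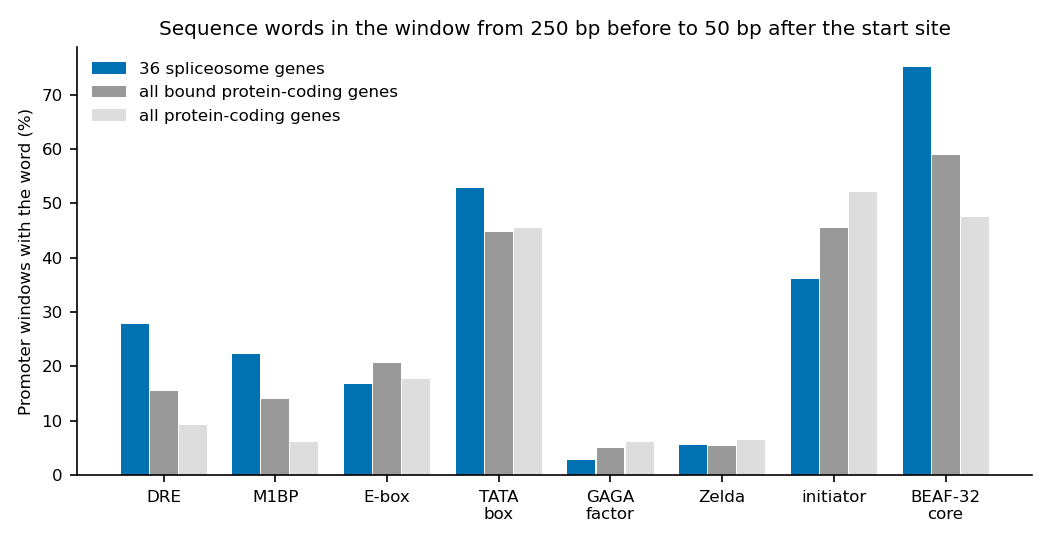
Percent of promoter windows that hold each of 8 sequence words, for the 36 genes (blue), all bound protein-coding genes (dark grey) and all protein-coding genes (light grey). DRE, M1BP and the BEAF-32 core are higher in the 36 genes (27.8%, 22.2% and 75%), and the initiator word is lower (36.1%).

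Beyond these symbols, 53 other splicing genes were looked up, and 28 of them (52.8%) were bound, against 29.2% of all protein-coding genes. Of the 53, 43 (81.1%) have a divergent neighbour, and 24 of these 43 (55.8%) were bound, against 49.1% of all divergent genes. Of 19 further genes of the tri-snRNP, the Prp19 complex and their cofactors, 13 (68.4%) were bound. The bound genes include barc at rank 352 (signal 799, −125 bp), the cyclophilin Cypl at 454, BCAS2, a Prp19 complex subunit, at 597, and the U5 helicase Brr2 at 1109. Cdc5 and crn, both of the Prp19 complex, were not bound. Of 17 SR proteins and hnRNPs, which choose splice sites, 8 (47.1%) were bound. They include glo at rank 1811, Saf-B at 2109 and SF2 at 2535, while Hrb27C and Hrb87F were not. Of 7 genes of snRNP assembly, which loads Sm rings onto RNA, 3 (42.9%) were bound, namely icln at 1006, Gem2 at 2359 and Smn at 3398, while csul and Gem3 were not. Of 5 genes of the exon junction complex, 2 (40%) were bound, Acn at 2545 and tsu at 4193, and btz and mago were not. Of 5 regulators, 2 (40%) were bound, Sxl, the sex-determination splicing factor, at rank 135 (signal 1106, −122 bp), and its cofactor fl(2)d at 196 (signal 956, −96 bp), while nito and tra were not.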

How the data were processed

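The authors' peak lists on dm6 were used, as deposited in narrowPeak form: a relaxed list for each of 3 libraries, a combined relaxed list and the IDR-thresholded list. Per the labels, each was called against a control alignment, which is not analysed here. Aligner, peak caller, tool versions and IDR cutoff: not given in the sources used here. The deposited signal is the caller's own enrichment value per peak, with no common scale between lists. The summit is the peak start plus the deposited summit distance. Lists for dm3 were not used.

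Start sites came from Ensembl release 115 (Release 6, the assembly of dm6) and sequence from RefSeq. The strongest summit within 500 bp of any start gave a gene's rank, signal and offset. Medians, quartiles and shares of offset over bound genes of the IDR list used the summit nearest to a start. Divergent neighbours exclude transposable elements. Computation used Python 3.11.15, NumPy 2.4.6 and SciPy 1.17.1, with Matplotlib 3.10.9 for figures, and the steps were tested on simulated data. The members and lists were chosen with earlier results of these data known. All genes of the set are named, with library values for the 12 strongest bound and for the unbound, and other splicing genes by up to 4 bound (by signal) and 2 unbound (alphabetically) per group, and 1 gene that this rule names is not reported here. Sequences are shown for the 4 strongest bound genes and 2 unbound genes outside 2R, and for Sf3b1 and Sf3b3, picked after their values were seen. Names not matched in the annotation (6 of the wider list) were left out. Alternatives were other peak lists, windows, start sites, gene assignments and sets of genes, and each library left out in turn.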

Additional observations from a re-analysis of the deposited data

How the results depend on the processing

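The bound share was 52.8%, against 29.2% of all genes. It was 27.8% (against 17.2%) with the upper 50% of IDR peaks, 77.8% (45.5%) with the combined list, 33.3% (20.9%) with IDR peaks shared by all libraries, 41.7% (23.0%) with a 200 bp window and 36.1% (21.2%) with summits given to the nearest gene alone. It was 25% for the 4 genes without a divergent neighbour (against 16.3% of such genes), an alternative chosen after seeing the data. With each library left out, which keeps peaks shared by the remaining pair, it ran from 30.6% (without replicate 2, against 23.1%) to 50% (without replicate 1, against 24.6%). Without replicate 2, 11 of the 19 genes stayed bound, and LSm1, Prp18, Prp3, Prp38, Sf3b1, Sf3b6, SmD1 and U2af50 did not. LSm1, Prp18 and Sf3b1 were still among the strongest peaks of both replicates 1 and 3. Their summits in these libraries lay farther apart than the 100 bp used for pairing. They were at −78 and −282 bp for LSm1, −69 and −182 bp for Prp18, and −24 and −136 bp for Sf3b1. Without replicate 3, 13 stayed bound, and without replicate 1, 17 did. The upper 50% of peaks kept 10 and the peaks shared by all libraries 12.

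The share of bound genes with a divergent neighbour (94.7%) was 89.3% with the combined list, 78.9% within 500 bp, 89.5% with protein-coding neighbours alone, and 90.9% to 94.4% with a library left out. The share found in all libraries (73.7%) was 60% (9 of 15) with a 200 bp window. It was 94.7% without replicate 1, 73.7% without either other library, and 100% among peaks shared by all libraries, by construction. The values with a library left out count summits within 500 bp of a start in each library, with no pairing of summits. The median rank of 2323 became 1595 among the 3202 promoter peaks, a shorter list. The median offset (−126 to −92 bp) moved by less than the SD over libraries (28.9 bp). The DRE share ran from 25% to 29.4%, inside its exact binomial 95% interval (14.2% to 45.2%). That interval treats genes as independent draws, which a list fixed by symbol is not, so it is a yardstick and no measure of spread. Leaving out LSm1 and Prps gave 52.9%, and adding 6 genes by synonym (chosen after seeing the data) 52.4%. Depth is unknown, so weak and absent peaks cannot be told apart. No paired analysis was possible because there is 1 group.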

Other observations

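The 6 genes that carry other symbols in the annotation but a synonym of the same kind were looked up after the values were seen. Bound were SNRPG at rank 717, noi, a subunit of SF3a, at rank 2291 (signal 332, −74 bp), and Spx, a subunit of SF3b, at rank 4224 (signal 209, −183 bp). CG6015, CG10333 and pea, the last of which is also in the wider list, were not. The neighbours Xpd and Cdk7, which share the summits of LSm1 (rank 3939) and snf (rank 3940), both encode subunits of the transcription factor TFIIH. The Xpd start was 215 bp and the Cdk7 start 154 bp from the summit. Mi-2, a chromatin remodeller gene, lay 34 bp from the Prp3 summit, and shrb, an ESCRT-III gene, 21 bp from the Prp38 summit. These neighbours were named after their values were seen.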
